A study of Mus musculus with 12 samples.

Results

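The Ifi200 family is a cluster of interferon-inducible genes on mouse chromosome 1 whose proteins bind nucleic acids. Of 6 family genes considered (Ifi203, Ifi204, Ifi205, Ifi213, Mndal and Aim2), 5 had an array feature that the platform annotation assigns to that gene alone, of 18193 genes so measured. Those 5 genes had 7 probe sets: 2 each for Ifi213 and Mndal and 1 each for Ifi203, Ifi204 and Aim2. Ifi205 had none. The genes were chosen by their log2 differences between NOD and B6.H2g7 in these same arrays, so the strain differences are described here without a test, and tests are given for the change from Tconv to Treg, which did not enter the choice.

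RNA was measured on 12 arrays of splenic T cells sorted from 2 strains, in 4 groups of 3 arrays: NOD Treg, NOD Tconv, B6.H2g7 Treg and B6.H2g7 Tconv. NOD mice develop autoimmune diabetes, and B6.H2g7 mice are B6 mice that carry the NOD MHC haplotype, so both strains share that haplotype and differ across the rest of the genome. Treg were sorted as CD4+CD25hi cells and Tconv as CD4+CD25- cells, both without CD8a, CD11b, CD69 and B220, and RNA of 3 mice, 6 weeks old, was pooled for every array. Values are log2 of the intensity that the authors deposited after RMA normalization, and a group mean under 5.28, the 25th percentile of all probe set means, is called dim. In such pooled RNA, fewer cells of a type and less RNA per cell cannot be told apart.

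Most Ifi200 proteins join a pyrin domain, which assembles signalling complexes, to HIN domains that bind DNA. Aim2 senses double-stranded DNA in the cytosol and, through the adaptor Pycard (ASC), activates the protease caspase-1 in a complex called an inflammasome. Ifi204 is related to human IFI16 and takes part in interferon induction by DNA through STING, and the nuclear proteins Ifi203 and Mndal have been tied to gene regulation and growth control. The role of Ifi213 is less well known.

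Arrays followed their labels. Foxp3, the factor that defines Treg, lay between 10.67 and 11.26 in NOD Treg and between 10.69 and 11.22 in B6.H2g7 Treg, above every Tconv array of NOD (5.57 to 6.24) and of B6.H2g7 (5.58 to 5.83). Foxp3-positive cells made up 89, 95 and 95% of the sorted NOD Treg in replicates 1 to 3. In B6.H2g7 Treg they made up 94, 96 and 96%. Whether the lower share in NOD Treg replicate 1 bears on the fits without replicate 1 was not tested. All 6 measured T cell markers were above the dim level in all 4 groups. Ifi200 genes are also active in myeloid cells, and 7 of 8 listed monocyte and macrophage markers were measured. Their summed intensity was 736 to 828 in NOD Treg against 751 to 859 in B6.H2g7 Treg, and 776 to 822 in NOD Tconv against 716 to 851 in B6.H2g7 Tconv. These ranges overlap, Itgam (CD11b) was dim in all groups, and no single one of the 7 was called by limma between the strains in Treg or in Tconv. The 6 measured dendritic cell markers summed to 780 to 883 in NOD Treg against 890 to 1069 in B6.H2g7 Treg, which do not overlap, and to 789 to 890 in NOD Tconv against 811 to 952 in B6.H2g7 Tconv. The 2 CD8 T cell markers summed to 201 to 212 in NOD Treg against 248 to 261 in B6.H2g7 Treg, which do not overlap either, and to 207 to 246 in NOD Tconv against 232 to 288 in B6.H2g7 Tconv. The 4 measured NK cell markers summed to 711 to 1013 in NOD Tconv against 1023 to 1284 in B6.H2g7 Tconv, which do not overlap. In Treg they overlapped (257 to 284 in NOD, 255 to 296 in B6.H2g7). The 4 Treg markers summed to 885 to 1157 in NOD Tconv against 561 to 790 in B6.H2g7 Tconv, with no overlap. Their sums in Treg overlapped (10326 to 13857 in NOD, 10429 to 15385 in B6.H2g7). Of these 4, limma called Ikzf2 higher in NOD Tconv (0.76 ± 0.19, SE, adjusted p = 0.0492). Between the populations, the T cell markers summed lower in every Treg array (18012 to 19408 in NOD, 16479 to 18444 in B6.H2g7) than in every Tconv array (20995 to 22618 in NOD, 20912 to 21539 in B6.H2g7). The NK cell marker Klrd1, 1 of 4 measured, was called lower in Treg of NOD (-3.68) and of B6.H2g7 (-4.28, log2). The B cell marker Cd79b, the only 1 of 6 measured to be called, was higher (0.75 and 0.84). The 6 B cell markers summed to 706 to 775 in NOD Treg against 692 to 805 in NOD Tconv, which overlap. In B6.H2g7 they summed to 656 to 792 in Treg against 632 to 769 in Tconv, which overlap too. The part of these shifts in the results below was not tested.

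RefSeq promoters (assembly GRCm38.p6, from C57BL/6J mice, 250 bases before to 50 after a start site) were available for 5 of the 6 genes, with 7 start sites in all. They are shown because members of this family are induced by interferon and because a near-identical site recurs in them. Capitals mark the core of the interferon-stimulated response element, GAAANNGAAA, searched on both strands. The promoters of Ifi213 (chr1:173599223-173599522, minus strand), Mndal (chr1:173880138-173880437, minus strand), Ifi203 (chr1:173942443-173942742, minus strand) and Aim2 (chr1:173420354-173420653, plus strand) read, 5′ to 3′:
Ifi213: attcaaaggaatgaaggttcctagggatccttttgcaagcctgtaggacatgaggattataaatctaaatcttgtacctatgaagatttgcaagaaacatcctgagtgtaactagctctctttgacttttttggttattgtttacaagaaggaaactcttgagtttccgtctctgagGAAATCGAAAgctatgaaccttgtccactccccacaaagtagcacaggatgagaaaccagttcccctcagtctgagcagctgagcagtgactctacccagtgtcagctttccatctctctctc
Mndal: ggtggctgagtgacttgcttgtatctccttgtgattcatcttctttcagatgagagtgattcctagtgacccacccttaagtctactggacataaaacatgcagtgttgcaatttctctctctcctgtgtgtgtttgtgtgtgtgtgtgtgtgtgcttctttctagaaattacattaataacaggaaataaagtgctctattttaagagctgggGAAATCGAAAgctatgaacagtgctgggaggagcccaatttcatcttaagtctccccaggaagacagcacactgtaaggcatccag
Ifi203: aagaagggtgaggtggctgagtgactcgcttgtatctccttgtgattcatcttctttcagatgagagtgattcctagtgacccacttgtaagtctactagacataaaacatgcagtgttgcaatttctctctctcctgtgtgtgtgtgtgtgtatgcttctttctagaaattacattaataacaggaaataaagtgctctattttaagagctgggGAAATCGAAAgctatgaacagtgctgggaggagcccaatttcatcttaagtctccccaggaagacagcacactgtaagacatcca
Aim2: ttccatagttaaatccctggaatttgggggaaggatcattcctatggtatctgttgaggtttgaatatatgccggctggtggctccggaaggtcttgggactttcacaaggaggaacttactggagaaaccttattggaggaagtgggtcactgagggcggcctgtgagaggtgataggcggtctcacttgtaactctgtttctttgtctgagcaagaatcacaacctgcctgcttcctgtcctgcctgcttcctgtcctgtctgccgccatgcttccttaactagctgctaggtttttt

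The core was present in 5 of the 7 promoters, against 3.44% of all 32851 promoters in the same table. These belong to 4 of the 5 genes, Ifi203, Ifi205, Ifi213 and Mndal, and a further Ifi203 start site had no match. In Ifi213, Mndal and Ifi203 the match was the same 10 letters, GAAATCGAAA, at 73, 36 and 35 bases before the start site (counted to its first base). Ifi205 had GAAATTGAAA at 134 bases before its start and a reverse match, TTTCACTTTC, from 24 bases after it. Mndal had a further start site, with the reverse match TTTCTCTTTC, and Aim2 had no match in this window. The gamma-activated site, TTCNNNGAA, was in none of the 7 member promoters and in 8.30% of all promoters. The Mndal and Ifi203 promoters shown were identical at 90.7% of their aligned positions, while Ifi213 and Mndal were identical at 47.5%, close to the 45.4% between Ifi213 and Aim2. A match describes the letters only, and the sequences of NOD were not used here.

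Ifi213 had by far the greatest strain difference among the members. Its brighter probe set (1437636_at) read 7.37, 6.83 and 7.21 in NOD Treg, against 11.37, 11.24 and 11.07 in B6.H2g7 Treg. In Tconv it read 7.37, 7.60 and 7.81 in NOD, against 11.62, 11.30 and 11.55 in B6.H2g7. All NOD arrays were low and all B6.H2g7 arrays high, with 3.26 in log2 between the nearest arrays of the strains. The means were 7.14 ± 0.28 in NOD Treg and 11.23 ± 0.15 in B6.H2g7 Treg (SD, n = 3 each), a signal 17.0-fold lower in NOD. In Tconv they were 7.59 ± 0.22 in NOD and 11.49 ± 0.17 in B6.H2g7 (SD, n = 3 each), 14.9-fold lower in NOD. The NOD means were still above the dim level by this probe set.

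The other Ifi213 probe set (1444405_at) gave the same direction from a lower brightness. It read 4.06, 3.99 and 4.17 in NOD Treg, against 5.87, 5.91 and 5.98 in B6.H2g7 Treg. In Tconv it read 4.03, 4.06 and 4.44 in NOD, against 6.87, 7.17 and 6.44 in B6.H2g7. No array of one strain reached the other, and the NOD means (4.07 in Treg, 4.17 in Tconv) were dim, so only the direction is given. Both Ifi213 probe sets correlated across all 12 arrays with r = 0.958, and within strains with r = 0.675 over the 6 NOD arrays and 0.473 over the 6 B6.H2g7 arrays. These probe sets read the same RNA on the same arrays, so their agreement is not a repeat of the experiment.

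Ifi204, the IFI16-related sensor, ran the other way. Its probe set (1419603_at) read 5.02, 6.00 and 5.91 in NOD Treg, against 3.18, 2.99 and 3.33 in B6.H2g7 Treg. In Tconv it read 5.02, 5.49 and 5.83 in NOD, against 3.06, 3.24 and 3.17 in B6.H2g7. Every NOD array was above every B6.H2g7 array, but the B6.H2g7 means (3.17 and 3.16) were dim and the NOD means (5.64 and 5.45) lay near the dim level. Only the direction is given, since a difference from a dim level is not measured. The lowest NOD array in each population was replicate 1, where the actin control probes gave the smallest gap between the 3' and 5' ends, a measure of RNA length, with 3.29 in Treg and 2.97 in Tconv, against 3.79 to 4.70 in the other NOD arrays. Without the 4 arrays numbered replicate 1, NOD was higher too.

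Mndal was bright in all arrays and moderately higher in NOD. By its first probe set (1426906_at) it read 12.20, 12.27 and 12.42 in NOD Treg, against 11.81, 11.92 and 11.86 in B6.H2g7 Treg. In Tconv it read 12.16, 12.10 and 12.37 in NOD, against 11.57, 11.57 and 11.49 in B6.H2g7. The groups of the 2 strains did not overlap in either population, and the signal was 1.35-fold higher in NOD Treg and 1.59-fold higher in NOD Tconv. The other probe set (1452231_x_at) gave 1.43-fold and 1.64-fold. Its x suffix marks probes that may also read related transcripts. Both Mndal probe sets followed each other closely, with r = 0.988 over 12 arrays, 0.939 over the NOD arrays and 0.965 over the B6.H2g7 arrays.

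Aim2, the inflammasome sensor, overlapped between strains in Treg and barely separated in Tconv. It read 6.17, 6.12 and 5.84 in NOD Treg and 5.84, 5.79 and 6.11 in B6.H2g7 Treg, which overlap (log2 difference 0.13). In Tconv it read 6.13, 5.90 and 5.71 in NOD, against 5.18, 5.34 and 5.69 in B6.H2g7 (log2 difference 0.51), and the nearest arrays lay 0.017 apart. Without the replicate 1 arrays the Tconv difference was 0.29. The B6.H2g7 Tconv mean of Aim2 (5.41) lay near the dim level. Ifi203 (1442828_at) read 6.79, 6.95 and 7.17 in NOD Treg, against 7.33, 7.27 and 7.41 in B6.H2g7 Treg, all lower in NOD by a mean of 0.37 in log2. In Tconv it read 7.12, 7.23 and 7.14 in NOD and 7.26, 6.98 and 7.21 in B6.H2g7, with overlap and a difference of 0.02. Ifi203 and Mndal, whose promoters shown are alike, are each read here by probe sets that name them alone, and whether these also read the other's RNA was not tested.

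**Figure D1:**
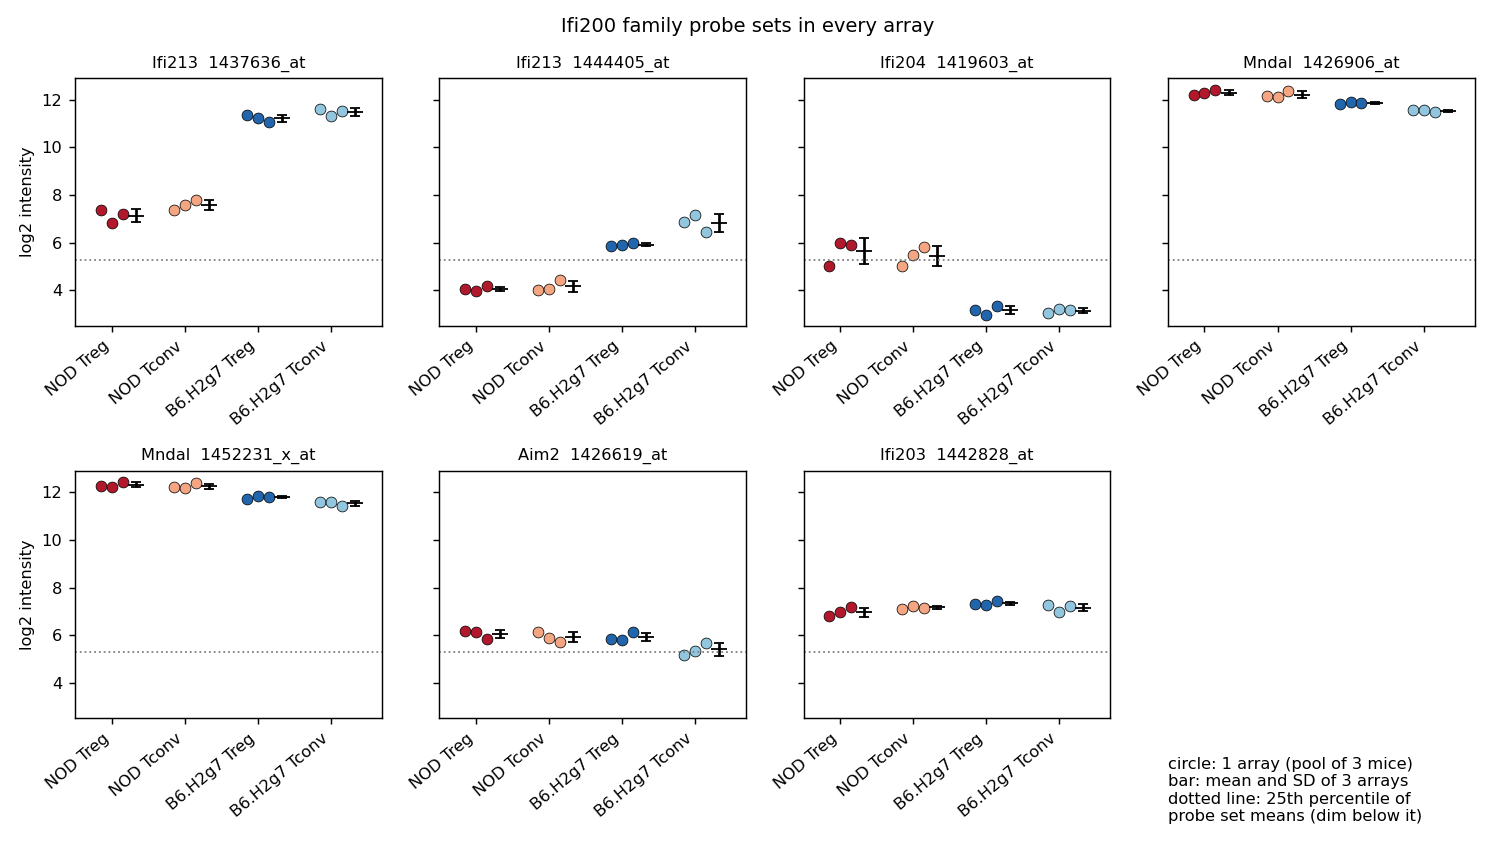
Log2 intensity (vertical axis) of the 7 Ifi200 family probe sets in the 12 arrays, by group (horizontal axis). Circles are arrays, bars the mean and SD of 3 arrays, and the dotted line the dim level of 5.28. Both Ifi213 probe sets lie lower in all NOD arrays, Ifi204 and Mndal lie higher in them, and Aim2 and Ifi203 overlap between strains in at least 1 population.

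Between strains, in Treg, 3 of the 7 probe sets were higher in all NOD arrays and 3 lower, where 7.07% of all 45037 probe sets were higher, 6.64% lower and 13.7% did not overlap. In Tconv 4 were higher and 2 lower, where 10.3% were higher, 6.54% lower and 16.9% did not overlap. Against all 6 arrays of the other strain, 5 of 7 did not overlap (3.41% of all probe sets), the exceptions being Ifi203 and Aim2. These counts follow from how the genes were picked and are no evidence of a family effect. The median log2 difference over the 7 was 0.13 in Treg (0.003 over all probe sets) and 0.51 in Tconv (0.02 over all), in both cases the value of Aim2. The order of group means put both NOD groups at the top for Ifi204 and Mndal and both B6.H2g7 groups at the top for Ifi213. For Aim2 and Ifi203 the middle groups differed by 0.001 and 0.02 in log2, less than their spread.

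**Figure D2:**
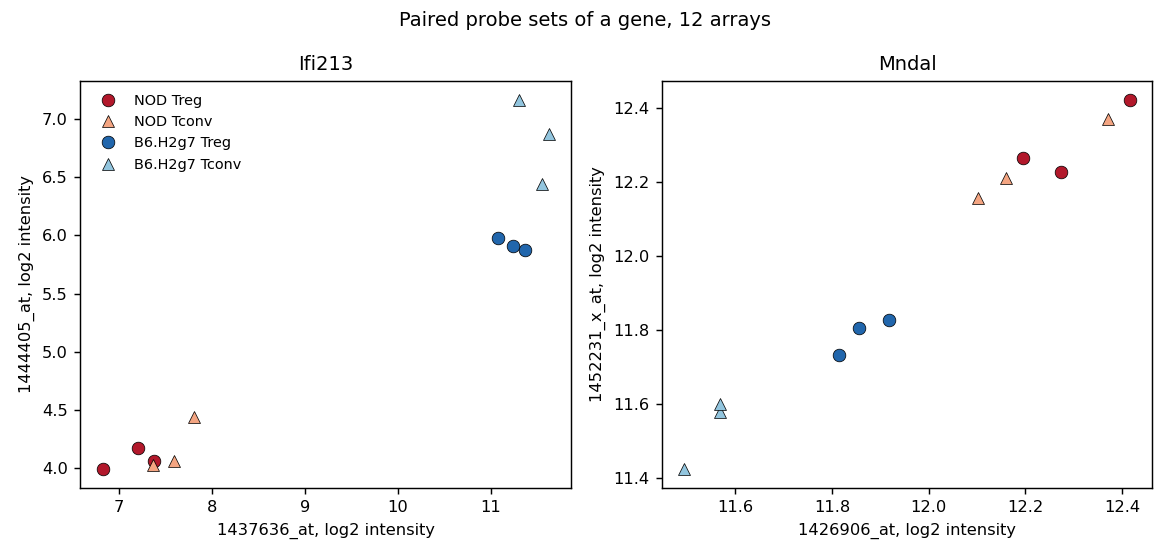
Log2 intensity of the paired probe sets of Ifi213 (left) and Mndal (right), 1 symbol per array, with circles for Treg and triangles for Tconv. For Ifi213 the NOD and B6.H2g7 arrays form separate clouds, and along the vertical axis B6.H2g7 Treg sit below B6.H2g7 Tconv. For Mndal the 12 arrays lie near a line (r = 0.988).

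A further 5 probe sets name several genes of the cluster and at least 1 of those considered here, and no value of theirs can be given to a gene. Their strain differences ranged from -0.26 to 0.67 in Treg and from -0.08 to 1.13 in Tconv. In each population 3 of 5 were higher in all NOD arrays, where 7.07% of all probe sets were in Treg and 10.3% in Tconv. Each names a gene picked for strain differences, so this count is no evidence of a family effect. The probe set that names Mndal, Ifi211, Ifi205 and Ifi204 had the upper value of both ranges. The probe set that names Ifi211 and Ifi205 was higher in all NOD arrays in both populations, by 0.35 and 0.59. How much RNA of a near relative each single-gene probe set also reads was not tested, and the probe sequences were not used here. Whether RNA of NOD and of B6.H2g7 binds each probe set alike was not tested either, so the strain differences are of probe set signal.

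Between Treg and Tconv few family probe sets were called. In NOD, limma called 0 of 7 probe sets, against 3.20% of all probe sets. With only 7 probe sets, a count of 0 cannot be told from this share. The unadjusted limma p was under 0.05 for 1 of 7 in NOD, 4 of 7 in B6.H2g7 and 5 of 7 averaged over both strains. The share of all probe sets under that unadjusted threshold was not counted. In B6.H2g7 limma called 1 of 7, against 3.37% of all, and that was the dimmer Ifi213 probe set. Its level in B6.H2g7 fell to a mean of 5.92 ± 0.05 in Treg, against 6.83 ± 0.36 in Tconv (SD, n = 3 each), with no overlap, as for 15.1% of all probe sets, 6.55% being lower (log2 change -0.91 ± 0.16, SE, adjusted p = 0.00591). The brighter Ifi213 probe set had a change of -0.26 ± 0.16 in B6.H2g7 (SE, adjusted p = 0.598) and -0.46 ± 0.16 in NOD (SE, adjusted p = 0.209). The call of the dimmer probe set passed in all 12 fits that left out 1 array (highest adjusted p = 0.0299) and was lost without the 4 arrays numbered replicate 1 (-0.86, adjusted p = 0.0697).

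In B6.H2g7, 4 probe sets were higher in every Treg array than in every Tconv array without passing the test, where 8.50% of all probe sets were higher in this way. Aim2 had a change of 0.51 ± 0.15 (SE, n = 3 per group, adjusted p = 0.127), which passed when B6.H2g7 Tconv replicate 3 was left out (0.65, adjusted p = 0.0443) and with array weights (0.49, adjusted p = 0.0201). Its Tconv mean in B6.H2g7 (5.41) lay near the dim level. Mndal had changes of 0.32 ± 0.09 (adjusted p = 0.111) and 0.25 ± 0.09 (adjusted p = 0.244) by its probe sets, the first of which passed with array weights (0.34, adjusted p = 0.0200), and Ifi203 one of 0.19 ± 0.11 (adjusted p = 0.596). In NOD all 7 overlapped between the populations, where 17.0% of all probe sets did not. The NOD changes were 0.13 ± 0.15 for Aim2, 0.08 ± 0.09 and 0.06 ± 0.09 for Mndal, -0.19 ± 0.11 for Ifi203 and 0.20 ± 0.24 for Ifi204 (SE), with adjusted p between 0.638 and 0.943.

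Averaged over both strains, the dimmer Ifi213 probe set was called (-0.50 ± 0.11, SE, adjusted p = 0.018), 1 of 7 against 5.84% of all probe sets. In NOD alone it changed by -0.10 ± 0.16 (SE, adjusted p = 0.946), with both groups dim. The averaged call thus came mainly from its change in B6.H2g7 (-0.91). That call was lost without NOD Treg replicate 2 (adjusted p = 0.0512) and without the replicate 1 arrays (adjusted p = 0.0898). The brighter one missed the threshold (-0.36 ± 0.11, SE, adjusted p = 0.0884), and passed without NOD Treg replicate 1 (-0.42, adjusted p = 0.0453), without all replicate 1 arrays (-0.48, adjusted p = 0.0325), with the replicate block (adjusted p = 0.0430) and with array weights (-0.33, adjusted p = 0.0363). Tested directly, the Treg to Tconv change differed between NOD and B6.H2g7 in 0 of 7 probe sets by limma, against 0.0933% of all, and 2 of 7 had an unadjusted p under 0.05. A count of 0 among 7 cannot be told from that share. The dimmer Ifi213 probe set had the greatest such difference (0.81 ± 0.23, SE, NOD minus B6.H2g7, adjusted p = 0.792), with both NOD groups dim. For Ifi203 it was -0.38 ± 0.16 (SE, adjusted p = 0.962) and for Aim2 -0.38 ± 0.22 (SE, adjusted p = 0.962).

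**Figure D3:**
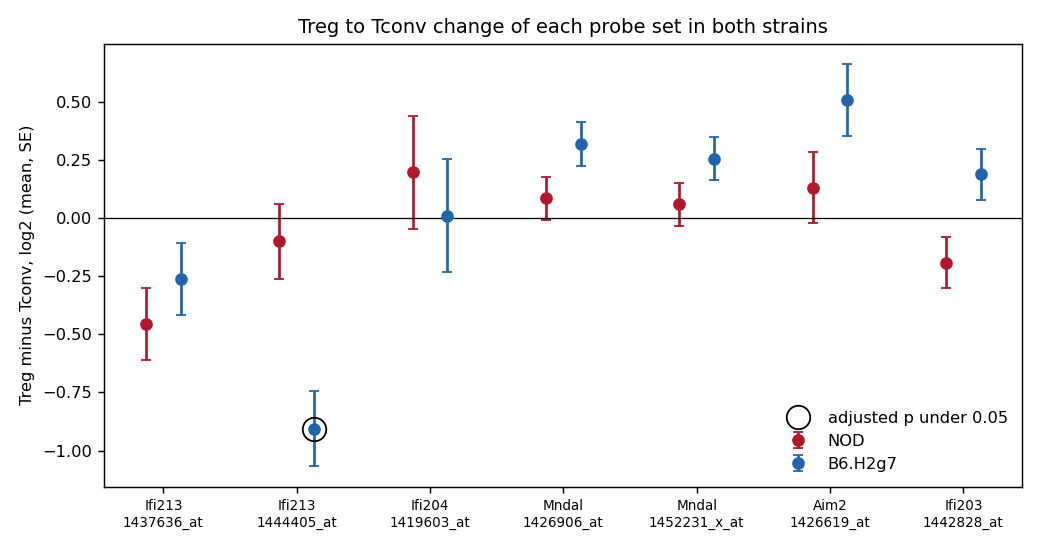
Treg minus Tconv in log2 (vertical axis, mean and SE of the fit) for each probe set (horizontal axis), NOD in red and B6.H2g7 in blue. The ring marks the call at an adjusted p under 0.05, the dimmer Ifi213 probe set in B6.H2g7 at -0.91.

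Other genes of the cluster were examined where a probe set named them alone, which held for 3 of 7: Ifi202b, Ifi207 and Ifi209. Ifi209 (Pyhin1), the next gene after Ifi213 in RefSeq order, was lower in NOD. Its brighter probe set (1435330_at) read 8.97, 9.52 and 9.12 in NOD Treg, against 11.70, 11.98 and 12.13 in B6.H2g7 Treg. The signal of this probe set was 6.65-fold lower in NOD Treg (log2 difference -2.73 ± 0.15, SE, n = 3 per group, adjusted p = 3.43e-07) and 5.89-fold lower in NOD Tconv (-2.56 ± 0.15, adjusted p = 5.83e-07). Its other probe set gave -0.58 ± 0.14 in Treg (SE, adjusted p = 0.0376) and -0.56 ± 0.14 in Tconv (SE, adjusted p = 0.0479), and each of those calls held in 5 of the 12 fits without 1 array. Both were lost without the replicate 1 arrays (adjusted p = 0.257 and 0.375) and with an intensity trend in the variance. The size of the Ifi209 difference thus depended on the probe set. Ifi202b, which encodes a family protein known to bind DNA, had differences of -0.04 in Treg and 0.26 in Tconv (adjusted p = 0.977 and 0.29). Its mean was dim in B6.H2g7 Tconv (5.23) and near the dim level in the other groups (5.41 to 5.49). Ifi207 was dim in all groups (0.12 and 0.07, adjusted p = 0.775 and 0.857). By limma 1 of these 3 genes was called lower and 0 higher in each population, where 1.49% of all genes were lower in Treg and 1.45% in Tconv.

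Along the chromosome the differences did not share a direction. In RefSeq order, the cluster began with Aim2 (small differences), followed by Ifi213 and Ifi209 (lower in NOD) and Ifi207 (small and dim). Then came Ifi204 and Mndal (higher in NOD), Ifi203 (small differences) and Ifi202b (small, dim or near the dim level). Of the 20 nearest genes with a probe set of their own, 10 on each side, limma called 0 between strains in Treg and 0 in Tconv, where 3.33% and 3.05% of all genes were called. With only 20 genes, a count of 0 cannot be told from these shares. The median differences of the neighbours were -0.002 and 0.04 before Aim2 and -0.003 and -0.009 after Ifi205, in Treg and Tconv in turn.

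**Figure D4:**
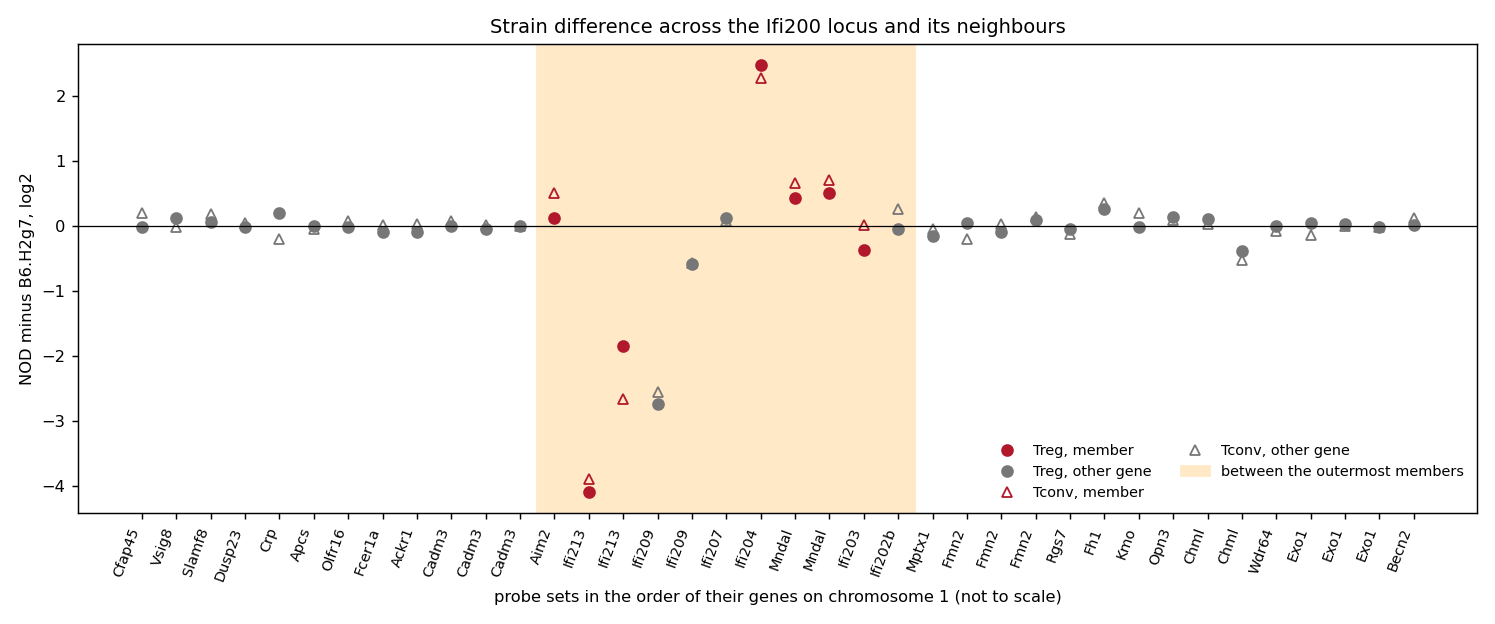
Strain difference (NOD minus B6.H2g7, log2, vertical axis) of every single-gene probe set from 10 genes before Aim2 to 10 genes after Ifi205, in gene order and not to scale. Red symbols are the genes described here, grey ones other genes, filled circles Treg and open triangles Tconv. Differences beyond 1 lie inside the shaded cluster, in Ifi213, Ifi209 and Ifi204. Those of Ifi204 and of the dimmer Ifi213 probe set are against a dim level and show only a direction.

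Genes of DNA sensing, STING signalling and inflammasomes were read from a list of 36 genes, 31 of them measured. Between strains, 2 were higher and 0 lower in NOD Treg, where 1.84% of all genes were higher and 1.49% lower (median difference over the list -0.004, 0.001 over all genes), and 2 were higher and 2 lower in NOD Tconv, where 1.60% were higher and 1.45% lower (0.02, against 0.03 over all genes). Casp1, the protease that Aim2 inflammasomes activate, was higher in NOD in both, by 0.85 ± 0.14 in Treg (SE, adjusted p = 0.00396) and 0.84 ± 0.14 in Tconv (SE, adjusted p = 0.00414). The Treg call of Casp1 was lost without the 4 replicate 1 arrays (0.79, adjusted p = 0.0508), as were the calls of Pycard, Casp4, Rnaseh2c and Polr3a. Pycard, the adaptor between Aim2 and caspase-1, was higher in NOD Tconv (0.59 ± 0.12, SE, adjusted p = 0.0192, 8 of 12 fits without 1 array). Casp4, an inflammatory caspase, was higher in NOD Treg (0.66 ± 0.16, SE, adjusted p = 0.0373, 5 of 12 fits). Rnaseh2c (-0.52) and Polr3a (-0.55) were lower in NOD Tconv (adjusted p = 0.0316 and 0.032), and their calls held in 6 and 7 of the 12 fits.

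Between the populations, in NOD, 3 of 31 were higher and 1 lower in Treg, where 2.86% of all genes were higher and 1.52% lower, and the list median was -0.02 (-0.02 over all genes). In B6.H2g7, 3 were higher and 1 lower in Treg, where 2.84% were higher and 1.70% lower, and the list median was 0.04 (0.001 over all genes). Casp4 (1.08 ± 0.16 in NOD, 1.02 ± 0.16 in B6.H2g7, SE), Casp1 (0.91 ± 0.14 in each) and Samhd1 (1.07 ± 0.17 and 1.09 ± 0.17), which degrades deoxynucleotides, were higher in Treg of both strains, with adjusted p between 0.00131 and 0.00314. Pycard had a lower level in Treg than in Tconv of NOD (-0.79 ± 0.12, SE, adjusted p = 0.00242). Cgas, the cytosolic DNA sensor that signals through STING, was lower in B6.H2g7 Treg than in B6.H2g7 Tconv (-0.52 ± 0.12, SE, adjusted p = 0.0343). That call held in 6 of 12 fits without 1 array and in 3 of 8 other fits, and was lost without the replicate 1 arrays (-0.46, adjusted p = 0.158).

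The type I interferon response, which induces Ifi200 genes, was read from a list of 52 genes, 45 of them measured. In Treg, 0 were higher and 2 lower in NOD than in B6.H2g7, where 1.84% and 1.49% of all genes were, and the list median was -0.25, against 0.001 over all genes. With the replicate number as a block, 0 were higher and 7 lower in Treg, where 4.92% of all genes were called. In Tconv, 0 were higher and 3 lower, where 1.60% and 1.45% of all genes were, and the median was -0.18, against 0.03. Rsad2 (viperin), an antiviral enzyme, was lower in NOD by 1.43 ± 0.29 in Treg and 1.32 ± 0.29 in Tconv in log2 (SE, adjusted p = 0.017 and 0.0287, 8 of 12 fits without 1 array each). Epsti1 was lower in NOD by 0.83 ± 0.14 in Treg (SE, adjusted p = 0.00394) and 0.64 ± 0.14 in Tconv (SE, adjusted p = 0.0243, 7 of 12 fits). Without the replicate 1 arrays the Treg call of Epsti1 held (adjusted p = 0.0109) and the other calls of this list were lost. Oas2 was lower in NOD Tconv by 0.46 ± 0.11 (SE, adjusted p = 0.0454, 3 of 12 fits). Of 15 measured interferon receptor and upstream signalling genes, limma called 0 between strains in Treg and 0 in Tconv, where 3.33% and 3.05% of all genes were called, with list medians of 0.08 and 0.12. Among 15 genes, a count of 0 cannot be told from these shares.

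Between Treg and Tconv, 3 interferon response genes were higher and 1 lower in Treg of each strain, where 2.86% of all genes were higher and 1.52% lower in NOD and 2.84% and 1.70% in B6.H2g7, with list medians of 0.06 in NOD and 0.13 in B6.H2g7. Gbp3, an interferon-induced GTPase, was higher in Treg by 2.19 ± 0.20 in NOD and 2.59 ± 0.20 in B6.H2g7 (SE, adjusted p = 2.69e-05 and 5.02e-06). Ifitm3, which restricts virus entry, was higher by 1.83 ± 0.21 and 1.53 ± 0.21 (SE, adjusted p = 2.18e-04 and 8.45e-04), and the nuclease gene Isg20 by 0.91 ± 0.20 and 0.97 ± 0.20 (SE, adjusted p = 0.0261 and 0.0171, 8 and 9 of 12 fits without 1 array). Slfn1, a Schlafen gene, was lower in Treg of NOD (-0.58 ± 0.14, SE, adjusted p = 0.0461, 3 of 12 fits), and Oas2, which makes the activator of RNase L, was lower in Treg of B6.H2g7 (-0.53 ± 0.11, SE, adjusted p = 0.0179, 6 of 12 fits). Without the replicate 1 arrays the calls of Slfn1 (adjusted p = 0.117), of Oas2 (adjusted p = 0.0952) and of Isg20 in NOD (adjusted p = 0.0544) were lost. Of the receptor and upstream genes, Ifngr1 (0.74 ± 0.14) and Ifnar1 (0.45 ± 0.10), chains of the interferon receptors, were higher in B6.H2g7 Treg than in B6.H2g7 Tconv (SE, adjusted p = 0.00759 and 0.0199, 12 and 9 of 12 fits), the call of Ifnar1 being lost without the replicate 1 arrays (adjusted p = 0.137). Ifng was lower in Treg than in Tconv of NOD (-1.18 ± 0.27, SE, adjusted p = 0.0354, 7 of 12 fits). In NOD 0 of 15 were thus higher and 1 lower, and with the replicate block 4 were higher and 2 lower, where 6.81% of all genes were called. Tested directly, the change differed between strains in 0 genes of these 3 lists by limma, where 0.110% of all genes were called. In lists of this size, a count of 0 cannot be told from that share.

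Likeness of pattern was measured by Pearson's r of log2 intensity over the 12 arrays, each gene by its brightest probe set, among 18188 genes outside the members. Closest to Ifi213 were Ms4a6d (r = 0.996), Nudt19 (0.991) and Qprt (0.991), all lower in NOD. Closest to Ifi204 were BC018473 (0.980), Zfp811 (0.975) and Ttc5 (0.972), and closest to Mndal were Phactr2 (0.972), Inppl1 (0.964) and Tlr6 (0.962), all higher in NOD. None of these 9 lies on chromosome 1, and these values mostly restate the separation of the 2 strains. Ifi203 was closest to 2010308F09Rik (0.937), Adamtsl5 (0.896) and Pou3f4 (0.865), and Aim2 to Calhm2 (0.887), Dll1 (0.880) and Gm17753 (0.873). Among the members themselves, Ifi213 and Ifi204 had r = -0.971 over 12 arrays, against -0.262 within NOD and -0.463 within B6.H2g7. Mndal and Aim2 had r = 0.708 within B6.H2g7 and -0.554 within NOD, over 6 arrays each.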

How the data were processed

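Trizol RNA went through 2 rounds of amplification before labelling, per the labels' protocols. Each value is the authors' deposited linear intensity of a probe set after RMA, a step named in the submitters' processing notes and in the series text. Which software ran it is not given in the sources used here. Here log2 was taken, with no further normalization, pseudocount or filter. Of 45101 probe sets, 64 controls were left out and 45037 tested; 34945 name 1 gene, 932 several, and 9160 are unnamed. A gene outside the members was read by its probe set of highest mean. All 12 value columns were matched to samples by their labels.

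Tests used limma 3.58.1 in R 4.3.3 (a mean per group, all 12 arrays, eBayes), tested on simulated data, with Benjamini-Hochberg adjustment over all probe sets of a comparison and calls at an adjusted p under 0.05. The replicates of a group are separate pools, per the series text. Same-numbered arrays deviated together in NOD (r of 0.564, 0.315 and 0.401 between Treg and Tconv) and between NOD and B6.H2g7 Treg (0.671, 0.338 and 0.302). In B6.H2g7 (0.521, -0.080 and 0.504) and between the Tconv groups (0.436, -0.041 and 0.199) 1 of 3 pairs fell short of an array of another number. The sample titles give only replicate numbers, and what same-numbered arrays share was not tested. The fit reported treats all arrays as unpaired, and the replicate block among the alternatives takes the numbers into account.

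The members and gene lists were chosen with earlier results of these data known. All member probe sets are named; of each gene list, up to the 4 called genes of smallest p in each single-strain or single-population comparison (those of the comparison averaged over strains are not listed); of the neighbours, the called ones; and the 3 genes of most similar pattern per member. Promoter motifs and identity (global alignment, Biopython 1.88) came from RefSeq. Protein sequences were not used here.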

Additional observations from a re-analysis of the deposited data

How the results depend on the processing

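The alternatives were the replicate block, the arrays of the compared groups alone, array weights, an intensity trend, leaving out dim probe sets, another quantile normalization, the actin difference as a covariate, the brightest probe set per gene, the ratio of mean linear intensities, and leaving out 1 array or all 4 arrays numbered replicate 1. No called change of a member, list gene or Ifi209 changed sign in those fits. The count of members called stayed at 0 in NOD Treg against NOD Tconv and for the difference between strains under each of these that gives such a count (not the ratio of intensities and, for the difference between strains, not the compared arrays alone). In B6.H2g7 it was 3 with array weights, 0 without dim probe sets (which leaves out the called one), 0 with the brightest probe sets, 0 without the replicate 1 arrays, and 1 to 2 without 1 array. Averaged over strains it was 2 with the replicate block, where the brighter Ifi213 probe set also passed (adjusted p = 0.043), 4 with array weights, 0 without dim probe sets, 0 with the brightest probe sets, and 0 to 2 without 1 array; without the replicate 1 arrays it stayed at 1, with the brighter Ifi213 probe set (adjusted p = 0.0325) in place of the dimmer (adjusted p = 0.0898).

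The median strain difference of the members in Tconv was 0.29 without the replicate 1 arrays and 0.40 to 0.64 without 1 array, against 0.51; in Treg it was 0.03 and 0.07 to 0.23, against 0.13. Over all probe sets, NOD Treg against NOD Tconv called 1443 in the fit reported and 2362 with the block, 2225 with the actin covariate and 985 to 1552 without 1 array. B6.H2g7 Treg against B6.H2g7 Tconv called 1519, and 2286 with the block, 3460 with weights, 2496 with the actin covariate and 976 with its own arrays alone. The averaged comparison called 2632, and 4796 with weights and 4138 with the actin covariate. The difference between strains called 42, and 89, 79 and 71 with the block, weights and covariate, 26 without dim probe sets and 27 to 38 without 1 array. The cause of these shifts was not tested. Alternatives for list genes were added after seeing the data. With the replicate block every named strain call of a list gene and of Ifi209 still passed. Between strains in Tconv, the interferon list then had 0 genes higher and 5 lower in NOD. The DNA sensing list had 4 and 2 there, and the receptor list 2 and 0. Over all genes the block called 4.96% in that comparison, against 3.05% in the fit reported. In B6.H2g7 Treg against B6.H2g7 Tconv the interferon list had 8 higher and 1 lower and the receptor list 3 and 1. There the block called 6.38% of all genes, against 4.55% in the fit reported. The number of arrays, and levels near background for Ifi204, the dimmer Ifi213 probe set and Aim2 in B6.H2g7 Tconv, limit the precision.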
